A study of Homo sapiens with 2 samples.

Results

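The mitochondrial ribosomal protein genes were compared between HCT116 cells transfected with an siRNA against KAT7 (siKAT7) and HCT116 cells transfected with a non-specific siRNA (siControl). The genes were taken by symbol: a row belonged to the set when its name was MRPL or MRPS, then a number, then at most one of the letters A to C. The symbols gave 78 of the 60623 named genes, 49 with an MRPL symbol and 29 with an MRPS symbol. Pseudogenes, antisense RNAs and readthrough models named after these genes were not members. HCT116 cells are an epithelial line of a human colon cancer, labelled wild type in both groups, so the KAT7 gene itself was intact in each. KAT7, also called HBO1, is a histone acetyltransferase of the MYST family. The series asks what KAT7 does for transcription, and RNA was measured by sequencing in 1 library per group.

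Mitochondria hold their own ribosomes, which make the few proteins encoded by mitochondrial DNA, all of them parts of the respiratory chain and ATP synthase. The RNAs of this ribosome come from mitochondrial DNA, whereas its proteins are encoded in the nucleus, made in the cytosol and imported. Some of the proteins have counterparts in the bacterial ribosome, and others were gained in the mitochondrial lineage. The symbol tells the subunit in nearly every case: MRPL proteins sit in the large subunit, which joins amino acids, and MRPS proteins mostly sit in the small subunit, which reads the mRNA.

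The named genes summed to 23533186 expected counts (read counts estimated by RSEM, which need not be whole numbers) in siKAT7 and 23450331 in siControl. KAT7 had 287.22 expected counts in siKAT7 and 442.94 in siControl, a log2 ratio of -0.52 with a 95% counting interval of -0.74 to -0.31, so the knockdown was partial at the RNA level. KAT7 itself did not reach the threshold of 1.5-fold used below. Each log2 ratio is siKAT7 over siControl after scaling with TMM factors, and each counting interval covers the counting error of the 2 libraries and no difference between cultures. There is no replicate check on any value here. Of the markers of colon epithelium 5 of 6 passed a mean of 1 CPM (counts per library scaled to a common size), with summed counts of 192109 in siKAT7 and 201964 in siControl. The 6 blood markers summed to 57 counts in siKAT7 and 29 in siControl, and PTPRC and HBB had 0 in both. The 4 endothelial markers summed to 22 counts in siKAT7 and 20 in siControl, with PECAM1, CDH5 and KDR at 0 in both. The 6 fibroblast markers summed to 718 counts in siKAT7 and 773 in siControl, nearly all from COL1A1.

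The mitochondrial ribosomal protein genes differed little between the libraries. None of the 78 genes was at least 1.5-fold higher in siKAT7 with a counting interval that excluded 0, against 3.92% of all 13217 genes tested. MRPS31 and MRPL1, 2.56% of the set, were at least 1.5-fold lower, against 3.9% of all genes tested, so neither share stood above the background. Most of the set lay slightly on the higher side: 57 of the 78 log2 ratios (73.1%) were above 0 with a median of 0.09, against 49.3% of all genes tested, but under scaling to total counts 36 (46.2%) were above 0, against 34.1% of all genes tested, and the median was -0.02. Relative to the median of all genes tested, the median of the set was higher by 0.09 under both scalings. In a bulk sample, fewer cells of a kind and less RNA per cell cannot be told apart.

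The genes lie on 21 chromosomes. All 78 passed the filter of a mean of 1 CPM, and each had at least 100 counts over both libraries. The median size of the log2 ratio, without its sign, was 0.14 in the set and 0.19 over all genes tested. That size, like the share of intervals that exclude 0, depends on the number of counts. A mean of 10 CPM was reached by 73 of the 78 members and by 7834 of the 13217 genes tested, and neither measure was set beside genes of like level. The ratios of 61 members lay within 1.2-fold in either direction. At a threshold of 1.2-fold 13 members (16.7%) were higher, against 13.1% of all genes tested, and 4 (5.13%) were lower, against 13.4%. At 2-fold 0 members were higher, against 1.35% of all genes tested, and 1 (1.28%) was lower, against 1.09%. Together the members had 139957 counts in siKAT7 and 137367 in siControl, or 0.595% (exact interval 0.592% to 0.598%) and 0.586% (0.583% to 0.589%) of all counts. The log2 ratio of these sums was 0.13 with TMM factors (0.12 to 0.14) and 0.02 with scaling to total counts. The counting interval was wholly above 0 for 37 members (47.4%), against 23.0% of all genes tested, and wholly below 0 for 9 (11.5%), against 22.0%. For the remaining 32 members the interval included 0. Under scaling to total counts 19 intervals (24.4%) were above 0, against 13.3% of all genes tested, and 17 (21.8%) below, against 35.6%, whereas with DESeq2 size factors 57 ratios were above 0, as with TMM factors.

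**Figure D1:**
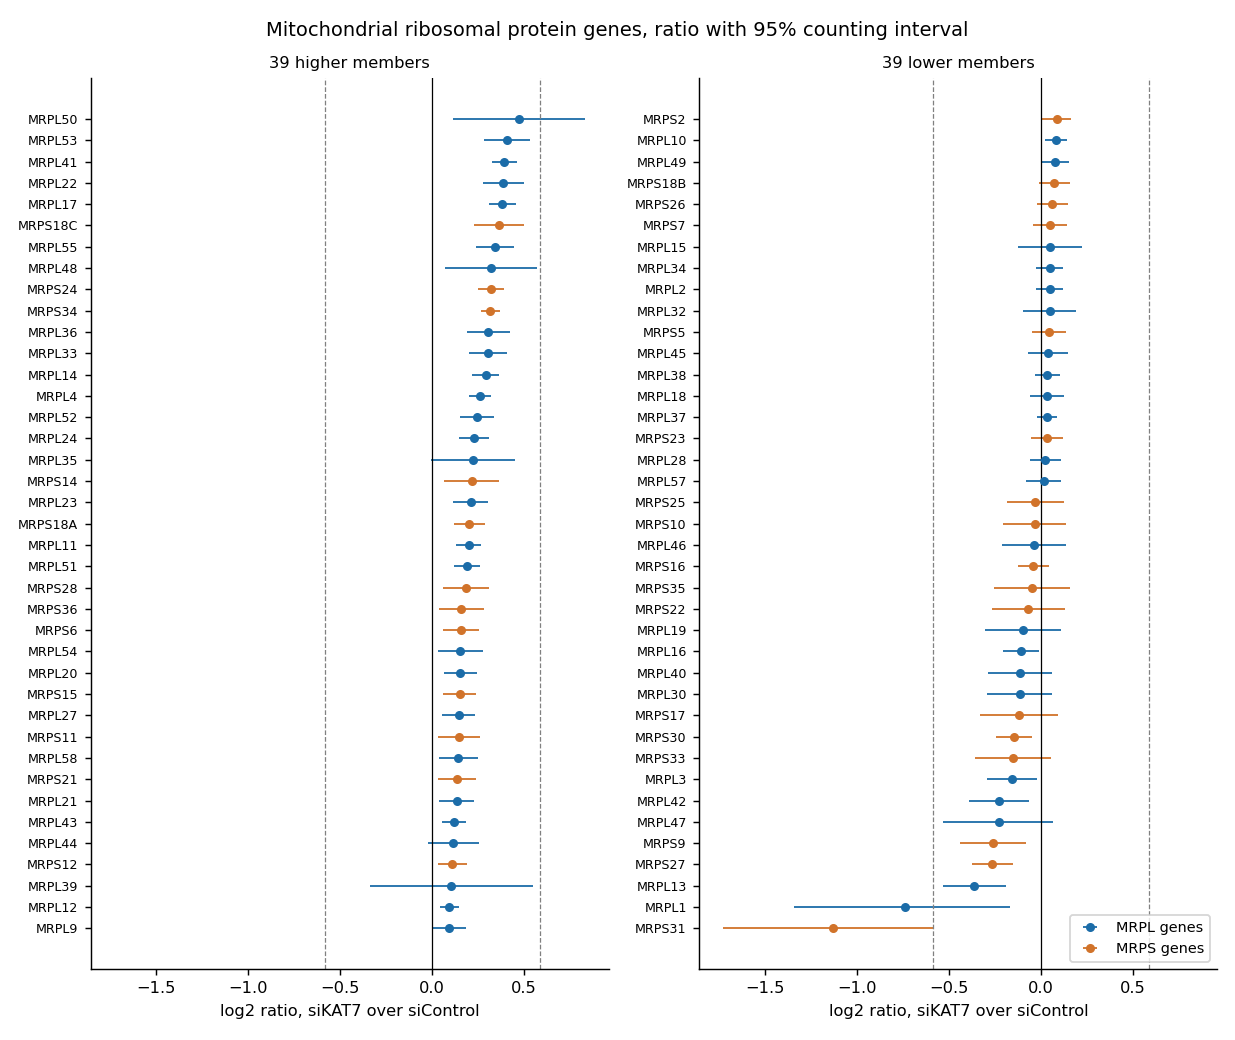
Log2 ratio of siKAT7 over siControl (TMM scaling) for each of the 78 genes, from the highest at the upper left to the lowest at the lower right; points are ratios, horizontal lines 95% counting intervals, blue MRPL and orange MRPS genes, and dashed lines mark 1.5-fold. With this scaling 57 points lie above 0, and 36 do under scaling to total counts; MRPS31 and MRPL1 are the 2 points beyond the lower dashed line.

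MRPS31 encodes a protein of the small subunit with no bacterial counterpart. It had 38 counts in siKAT7 and 90 in siControl, or 1.68 and 3.70 CPM, and was 2.19-fold lower in siKAT7 (log2 ratio -1.13, counting interval -1.73 to -0.58). The gene lies on the minus strand of chromosome 13 at 40729135 to 40771173 (GRCh38). It was among the genes with the lowest levels of the set, in place 77 of 78 per length. In the authors' deposited table MRPS31 is the 1 member marked significant, at a log2 fold of -1.25, a value that compares these 2 libraries and not the conditions. Other members, MRPL41 among them at a log2 fold of 0.28, had smaller adjusted p-values there without the mark. The mark therefore does not rest on that p-value alone. One pseudogene of MRPS31 carries more counts than the gene: MRPS31P4 had 158.23 in siKAT7 and 210.82 in siControl, and MRPS31P5 had 22.77 in siKAT7 and 18.92 in siControl. Both counts of MRPS31 were whole numbers, and those of the pseudogenes were not. With the pseudogene counts added to the gene, the log2 ratio was -0.44, and MRPS31 no longer passed 1.5-fold. How reads were assigned between the gene and its copies therefore bears on this value and was not tested.

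MRPL1 is the counterpart of the bacterial protein of the stalk near the tRNA exit site of the large subunit. It had 40 counts in siKAT7 and 72 in siControl, or 1.76 and 2.96 CPM, a log2 ratio of -0.74 with an interval of -1.34 to -0.17. It lies on the plus strand of chromosome 4 at 77862520 to 77952790. The interval reached from a small to a more than 2-fold decrease, since few reads covered the gene. Among genes within 10% of its length, 1.09% had a lower ratio than MRPL1, and 0.623% had a lower ratio than MRPS31. With a filter of a mean of 10 CPM in place of 1, both genes drop out and 0 of 73 members were 1.5-fold higher or lower, against 1.39% and 0.766% of all genes that passed it.

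The other low members had more counts and smaller ratios. MRPL13, whose bacterial counterpart joins the large subunit early in its assembly, had 487 counts in siKAT7 and 672 in siControl, a log2 ratio of -0.36 (-0.53 to -0.19). MRPS27, an RNA-binding protein of the small subunit, had 1184 counts in siKAT7 and 1526 in siControl, a log2 ratio of -0.26 (-0.37 to -0.15). The intervals of both lay wholly below 0, although neither gene reached 1.5-fold. MRPS9, whose bacterial counterpart reaches the peptidyl-tRNA with its tail, had 456 counts in siKAT7 and 587 in siControl and the same log2 ratio of -0.26 (-0.44 to -0.08). MRPL42, a large-subunit protein without a bacterial counterpart, had 566.02 counts in siKAT7 and 710.92 in siControl, and a log2 ratio of -0.23 (-0.39 to -0.07). MRPL47, a protein at the end of the peptide exit tunnel, had the same value, -0.23, but its 169 counts in siKAT7 and 213 in siControl left an interval of -0.53 to 0.07. MRPL3, counterpart of a protein near the peptidyl transferase centre, stood at -0.16 (-0.30 to -0.02), with 819 counts in siKAT7 and 981.85 in siControl.

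The members with the highest ratios were all under 1.5-fold. MRPL50, a large-subunit protein without a bacterial counterpart, had the highest log2 ratio, 0.47, from only 151 counts in siKAT7 and 117 in siControl, so that its interval ran from 0.11 to 0.83. MRPL53, also specific to mitochondria, had 1145.88 counts in siKAT7 and 927.68 in siControl, a log2 ratio of 0.41 (0.28 to 0.53). MRPL41, likewise of the large subunit, had 4006 counts in siKAT7 and 3278 in siControl, and a narrow interval of 0.32 to 0.46 about a ratio of 0.39. The interval of MRPL41, with the most counts of the 3, was far narrower than that of MRPL50.

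Next came MRPL22 and MRPL17, whose bacterial counterparts line or border the peptide exit tunnel. MRPL22 had 1508 counts in siKAT7 and 1238 in siControl, a log2 ratio of 0.39 (0.28 to 0.50). MRPL17 had 3529 counts in siKAT7 and 2908 in siControl, a log2 ratio of 0.38 (0.31 to 0.45). MRPS18C, 1 of 3 human relatives of bacterial S18, had 967.14 counts in siKAT7 and 806.66 in siControl, a log2 ratio of 0.36 (0.23 to 0.50). MRPL55 followed at 0.34, with 1663 counts in siKAT7 and 1410 in siControl, and MRPL48, a protein of the central protuberance, at 0.32, with 287 in siKAT7 and 247 in siControl. The interval of MRPL48 went down to 0.07, and to -0.04 with scaling to total counts, while that of MRPL55 stopped at 0.24. Under scaling to total counts these 8 ratios were lower by 0.11 each and stayed above 0, from 0.21 for MRPL48 to 0.36 for MRPL50.

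Other members are named for what they do. MRPL12, which in bacteria has a counterpart that recruits translation factors and which has also been reported to bind the mitochondrial RNA polymerase, had 6435 counts in siKAT7 and 6476 in siControl. Its log2 ratio was 0.09 with TMM factors and -0.01 with scaling to total counts. MRPL58, a peptidyl-tRNA hydrolase that frees stalled ribosomes and was built into the large subunit, stood at 0.14, with 1435 counts in siKAT7 and 1396 in siControl. MRPS12, the counterpart of the bacterial protein that governs decoding accuracy, stood at 0.11 with TMM factors and 0.00 with scaling to total counts. Exons of MRPS12 share 349 bases with SARS2 on the opposite strand, whose counts equal 42.5% of those of MRPS12 in siKAT7 and 44.2% in siControl.

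Core proteins of the large subunit did not share one value. MRPL2, next to the peptidyl transferase centre, had 2851 counts in siKAT7 and 2961 in siControl, and a log2 ratio of 0.05 that turned to -0.06 with scaling to total counts. MRPL4, of the exit tunnel, had 4984 counts in siKAT7 and 4468 in siControl, and a log2 ratio of 0.26 (0.20 to 0.32). The intervals of MRPL4 and of MRPL3 above do not overlap, although both genes have conserved bacterial counterparts in the same subunit. MRPS30 carries a small-subunit symbol, yet its protein sits in the large subunit. It had 1542 counts in siKAT7 and 1832 in siControl, a log2 ratio of -0.15 (-0.25 to -0.05).

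The 3 human relatives of bacterial S18 had different ratios. MRPS18C had the ratio given above. MRPS18A, whose protein takes a place in the large subunit, had 2344 counts in siKAT7 and 2187 in siControl, a log2 ratio of 0.20 (0.12 to 0.29). MRPS18B had 2280 counts in siKAT7 and 2329 in siControl, a ratio of 0.07 whose interval, -0.01 to 0.16, included 0 and which turned to -0.04 with scaling to total counts. The interval of MRPS18B lay below that of MRPS18C, while that of MRPS18A overlapped both, and these intervals hold counting error only. MRPS36, now also called KGD4, is described as a part of the 2-oxoglutarate dehydrogenase complex and not of the ribosome. It had a log2 ratio of 0.16 (0.04 to 0.28), within the range of the set, and of 0.05 (-0.07 to 0.17) with scaling to total counts.

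The other 49 members lay between these ends, from -0.15 for MRPS33 to 0.30 for MRPL36, with 38 above 0 under TMM factors. Their counts over both libraries ran from 176 to 11049. The interval was wholly above 0 for 20 of them and below 0 for 1, MRPL16, named here for that reason, which had 1535 counts in siKAT7 and 1777 in siControl and a log2 ratio of -0.11 (-0.21 to -0.01). MRPL36, whose bacterial counterpart is a small zinc-binding protein, had 1272 counts in siKAT7 and 1106 in siControl. MRPS33 had 364.15 counts in siKAT7 and 434 in siControl, with an interval of -0.36 to 0.05. The 28 other intervals, that of MRPS33 among them, included 0.

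By symbol, the 49 MRPL genes had a median log2 ratio of 0.10 and the 29 MRPS genes a median of 0.06; with scaling to total counts the medians were -0.01 and -0.05. The interval was wholly above 0 for 24 of the MRPL genes and 13 of the MRPS genes, and wholly below 0 for 5 and 4. With MRPS30 and MRPS18A moved to the large subunit, where their proteins sit, and MRPS36 left out, the medians stayed at 0.10 for 51 large-subunit genes and 0.06 for 26 small-subunit genes. The 46 genes with a bacterial counterpart had a median of 0.10, and the 31 specific to mitochondria a median of 0.06. MRPS36 was in neither class, and MRPS18A and MRPS18B were put with the 31, as the naming of mitochondrial ribosomal proteins does. These differences of 0.04 to 0.05 are small beside the spread within each group: the interquartile range of the MRPL ratios ran from 0.03 to 0.23 and that of the MRPS ratios from -0.05 to 0.16. The MRPL genes were also shorter, with a median length of 1175 bases against 1462 for the MRPS genes. Set beside other protein-coding genes within 10% of each member's length, the median difference was 0.01 for MRPL and 0.02 for MRPS genes. It was 0.01 both for genes with a bacterial counterpart and for those specific to mitochondria.

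Levels differed far more between the genes than between the libraries. Per length, the members ran from 1.13 to 303.5 CPM per kilobase in siKAT7, a 269-fold range with a median of 61.9, and from 1.44 to 263.7 in siControl, a 183-fold range with a median of 55.0. MRPL41 was highest in siKAT7, with 303.5 CPM per kilobase in siKAT7 and 231.4 in siControl. MRPL12 was highest in siControl, with 281.3 in siKAT7 and 263.7 in siControl. Next came MRPS34, a small-subunit protein specific to mitochondria, with 253.1 CPM per kilobase in siKAT7 and 203.3 in siControl. MRPS24 followed with 225.7 in siKAT7 and 181.1 in siControl. At the other end were MRPL50, MRPS31 and MRPL1. The order of the 78 levels was nearly the same in both libraries, with a Spearman correlation of 0.994 across genes, which are not independent replicates.

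**Figure D2:**
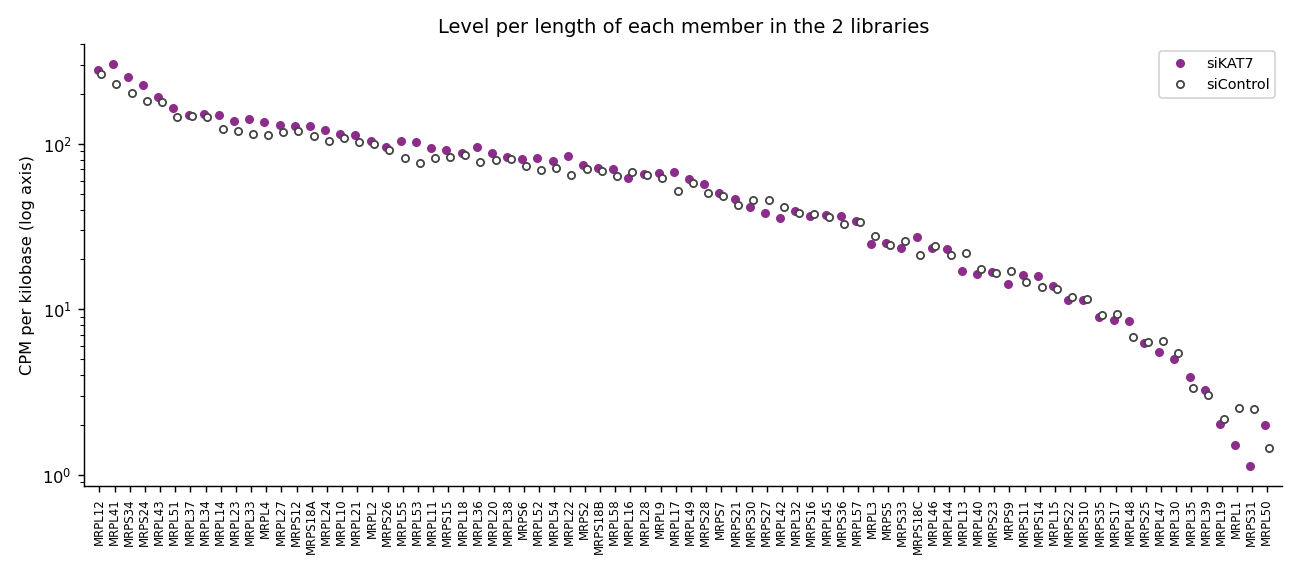
Level of each of the 78 genes in CPM per kilobase of gene length (log axis), ordered by the mean of both libraries, with filled circles for siKAT7 and open circles for siControl. Levels span 269-fold in siKAT7 and 183-fold in siControl, and the pairs of circles stay close; MRPL1 and MRPS31, near the right end, have the siKAT7 circle clearly lower.

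Mitochondrial ribosomal protein genes are short: their lengths in the deposited table ran from 496 to 7825 bases with a median of 1334.5, against 2987 for the other protein-coding genes tested. Other short genes also had higher ratios than long ones in this comparison. Among other protein-coding genes, the shortest length decile (105 to 1159 bases) had a median log2 ratio of 0.15, the next decile (1161 to 1647 bases) 0.05, and the longest decile -0.07. The 33 members in the shortest decile had a median of 0.15, and the 25 members in the next decile a median of 0.05, both equal to those of the other genes there to the second decimal. The longer deciles held 1 to 7 members each, and not all of their medians were as close. Members stood at 0.03 against 0.02 for other genes in decile 3, and at 0.11 against -0.01 in decile 4. In decile 6 the medians were 0.14 against -0.04, and in decile 8 -0.07 for both. Within the set, the 26 shortest members had a median of 0.17, the 26 of middle length 0.05 and the 26 longest 0.04. With scaling to total counts every one of these medians is lower by 0.11.

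Each member was then set beside the other protein-coding genes within 10% of its length, 62 to 1360 genes per member. The median over members of these neighbours' medians was 0.08, and the median difference between a member and its neighbours was 0.01, the same with scaling to total counts. Of the 78 members 45 lay above their neighbours' median and 33 below. A member had a median of 51.5% of genes of like length below it, and a median of 63.2% of all genes tested. Over the 5217 other protein-coding genes between the members' 10th and 90th length percentiles (687.4 to 2794.7 bases), the median was 0.03, 55.5% of the ratios were above 0, 30.9% of the intervals were wholly above 0 and 19.9% wholly below. In those genes 3.35% were 1.5-fold higher and 3.32% were 1.5-fold lower. The definition of length matters: with the median length of a gene's annotated transcripts, the median difference was 0.08, and with length and GC content matched together it was 0.04 over 77 members. With length and level matched it was -0.01. The deposited table has a length column, its definition not given in the sources used here.

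**Figure D3:**
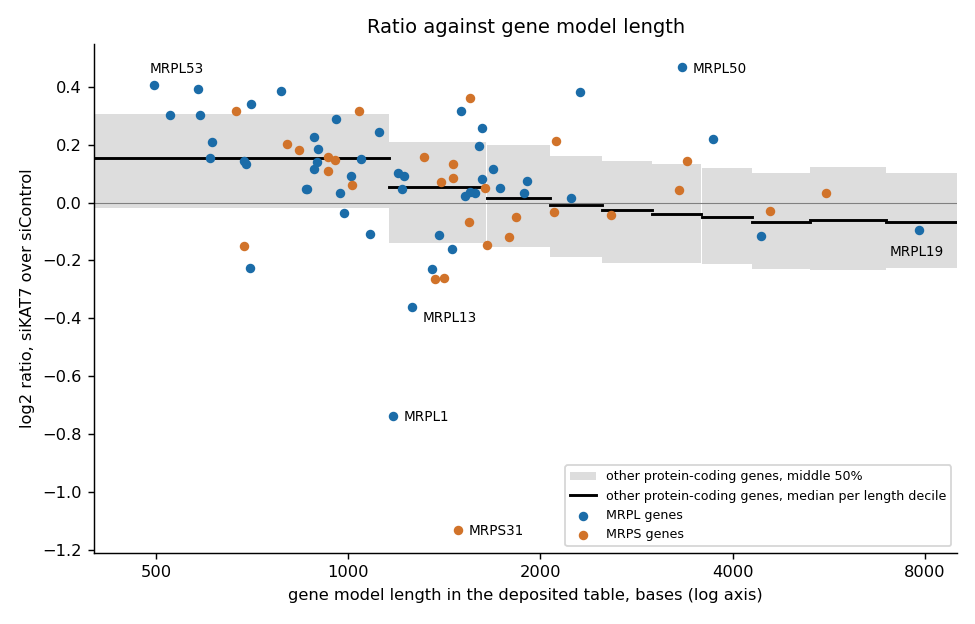
Log2 ratio of siKAT7 over siControl (TMM scaling) against gene length in the deposited table (log axis) for the 78 members, blue for MRPL and orange for MRPS genes; black lines are medians and grey bands interquartile ranges of other protein-coding genes in deciles of length. The black line stands at 0.15 in the shortest decile and -0.07 in the longest, and 33 members lie in the shortest decile; total-count scaling shifts all points and lines down by 0.11.

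The members furthest from genes of their own length lay mostly below them. MRPS31 was below the median of its neighbours in length (difference -1.16), as were MRPL1 (-0.85), MRPL13 (-0.46) and MRPL42 (-0.42). MRPL50, with 3336 bases, was 0.51 above, and MRPL17, with 2305 bases, was 0.39 above. MRPL53, the shortest member at 496 bases, had a ratio of 0.41 against a median of 0.24 among the 62 genes of like length. Across the 78 members the Spearman correlation of the ratio was -0.33 with length, 0.32 with GC content and 0.35 with mean CPM, and across 11892 other protein-coding genes -0.19, 0.17 and 0.12. GC content and level are themselves tied in the set, with a correlation of 0.70, and genes are not independent replicates. In 3 groups of 26 members by rising GC content the medians were -0.04, 0.07 and 0.14, and in 3 groups by rising mean CPM -0.06, 0.14 and 0.10. The part that length, GC content or level has in the ratios was not tested.

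Of the 78 members 41 share exon bases with another annotated gene, 29 of them with one on the opposite strand, with the strand setting of the counting not given in the sources used here. Without strand, reads of a gene and of its opposite-strand neighbour cannot be told apart where they overlap. For 22 members an overlapping gene had at least 10% of the member's counts in either library, for 16 of them one on the opposite strand and for the other 6 on the same strand alone. The clearest case among the genes above is MRPL47, which shares 124 exon bases with ACTL6A on the opposite strand. ACTL6A had 235 counts in siKAT7 and 345 in siControl, more than MRPL47 itself. MRPS18C shares 1956 bases with ABRAXAS1, which had 86.88 counts in siKAT7 and 102.34 in siControl. MRPL20-AS1, antisense to MRPL20, had 199.01 counts in siKAT7 and 301.07 in siControl, a log2 ratio of -0.49. The readthrough model URGCP-MRPS24 had 19.97 counts in siKAT7 and 0 in siControl.

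Some mitochondrial ribosomal protein genes start head to head with another gene, from a shared stretch of DNA. A protein-coding partner starting in the opposite direction, with a gap of at most 1000 bases between the genes, was annotated for 17 members (21.8%). The share was 9.74% of other protein-coding genes tested. Neighbours on the opposite strand that overlap a member were not counted as partners, so these values and those of the pairs below hold for genes without overlap. In the 12 pairs with both genes tested, 5 pairs (41.7%) had both ratios on the same side of 0, against 49.8% of 492 other such pairs. With scaling to total counts 7 pairs (58.3%) did, against 57.9% of the others. The Spearman correlation between the ratios of the 12 pairs was 0.52, and 0.04 in the other pairs, with few pairs in the set and low counts in some of them. MRPS11 and MRPL46 form a pair within the set, 34 bases apart on chromosome 15. MRPS11, of the small-subunit platform, had 1246 counts in siKAT7 and 1210 in siControl, a log2 ratio of 0.14, and MRPL46, of the large subunit, had 524.87 in siKAT7 and 578.32 in siControl, a ratio of -0.04 with an interval that included 0. MRPL36 and its partner NDUFS6, a subunit of respiratory complex I, had 0.30 and 0.28. MRPS18C, with 0.36, is paired with HELQ, a DNA helicase, which had 82 counts in siKAT7 and 57 in siControl and a ratio of 0.62 (0.12 to 1.14).

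RefSeq promoters (GRCh38.p14, 250 bases before to 50 after the start) were found for 69 of the 78 members, and were searched on both strands for 3 motifs of factors tied to nuclear genes for mitochondria. The NRF1 motif was spelled GCGCATGCG, the motif of ETS factors such as GABP as CCGGAAG, and that of YY1 as AAGATGGCG. NRF1 letters stood in 3 member promoters (4.35%), against 3.76% of other protein-coding genes tested and 2.10% of all promoters. ETS letters stood in 29 (42.0%), against 19.6% and 10.7%. YY1 letters stood in 13 (18.8%), against 4.04% and 1.85%. A match describes the letters and does not show a bound site.

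The 3 members with NRF1 letters were MRPL17, MRPL22 and MRPS18C, all among the 8 highest, with log2 ratios of 0.36 to 0.39. In other genes with these letters the median ratio was -0.04. ETS letters went with a median of 0.11 against 0.08 in members without them, and YY1 letters with 0.07 against 0.09. Below are bases upstream of the start for those 3 genes, for MRPS34, one of the most abundant members, and for MRPS31, the member with the lowest ratio. Capitals mark NRF1 letters in the first 3 and ETS letters in the others, on either strand, and only bases outside annotated exons are shown. In MRPL17 the NRF1 matches of both strands overlap.
MRPL17: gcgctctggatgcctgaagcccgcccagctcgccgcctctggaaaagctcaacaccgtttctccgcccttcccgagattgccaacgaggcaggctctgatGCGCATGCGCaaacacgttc
MRPL22: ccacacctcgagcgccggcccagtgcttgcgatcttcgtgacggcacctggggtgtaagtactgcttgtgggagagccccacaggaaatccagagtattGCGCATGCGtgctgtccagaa
MRPS18C: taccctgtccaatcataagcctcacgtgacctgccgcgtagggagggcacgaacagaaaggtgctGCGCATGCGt
MRPS34: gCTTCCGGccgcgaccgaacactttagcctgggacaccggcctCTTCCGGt
MRPS31: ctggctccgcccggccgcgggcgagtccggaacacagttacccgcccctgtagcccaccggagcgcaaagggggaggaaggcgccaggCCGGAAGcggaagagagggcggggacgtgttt
The stretches lie at chr11:6683402-6683521 on the minus strand for MRPL17, chr5:154940950-154941069 on the plus strand for MRPL22, chr4:83455857-83455931 on the plus strand for MRPS18C, chr16:1773156-1773206 on the minus strand for MRPS34 and chr13:40771191-40771310 on the minus strand for MRPS31. MRPS34, with ETS letters at both ends of its stretch, had 5968.59 counts in siKAT7 and 5146.05 in siControl and a log2 ratio of 0.32 (0.26 to 0.37), while MRPS31, with the same letters, had -1.13.

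Other genes that serve the mitochondrial ribosome were read the same way, with TMM factors; scaling to total counts lowers each of these ratios by 0.11 and so turns those between 0 and 0.11 negative. Of the 5 ribosome proteins whose symbols do not start with MRP, 0 passed 1.5-fold in either direction, with a median log2 ratio of 0.16. PTCD3, which binds RNA in the small subunit, had 157 counts in siKAT7 and 229 in siControl, a ratio of -0.44 (-0.74 to -0.14). DAP3, a GTP-binding protein of the small subunit, stood at -0.18, with 1220 counts in siKAT7 and 1481 in siControl. CHCHD1, GADD45GIP1 and AURKAIP1 stood at 0.16, 0.18 and 0.26, with intervals wholly above 0.

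Of 26 assembly factors, which fold and modify the ribosomal RNA and fit the proteins, 0 were 1.5-fold higher and 2 were 1.5-fold lower, with a median of -0.04, beside 3.92% higher and 3.9% lower over all genes tested, against which the counts of the lists that follow are also to be read. FASTKD2, an RNA-binding protein of the mitochondrial RNA granules, had 60 counts in siKAT7 and 99 in siControl, a log2 ratio of -0.62 (-1.11 to -0.14). DDX28, a DEAD-box helicase of large-subunit assembly, had 184.22 counts in siKAT7 and 298 in siControl, a ratio of -0.59 (-0.87 to -0.32). Both lay close to the 1.5-fold threshold. MIEF1 stood at -0.34 and YBEY, an rRNA endonuclease, at 0.23.

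Of 14 tested translation factors 0 passed 1.5-fold, with a median of -0.02. GFM1, the elongation factor that moves the ribosome along the mRNA, had 155 counts in siKAT7 and 227 in siControl, a log2 ratio of -0.45 (-0.75 to -0.15). TUFM, the factor that brings charged tRNAs and the most abundant of the list by counts, had 16620 counts in siKAT7 and 16610 in siControl, and a ratio of 0.10 with TMM factors. Of the 12 tested regulators of nuclear genes for mitochondria 1 was lower, GABPB2, a partner of the ETS factor GABPA, with 43.55 counts in siKAT7 and 73 in siControl (-0.62, -1.20 to -0.07). NRF1 stood at 0.07, GABPA at -0.07 and YY1 at -0.09, and each interval included 0.

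The products of mitochondrial DNA did not move as one group. The 12S rRNA MT-RNR1 had 19797.91 counts in siKAT7 and 20069 in siControl, a log2 ratio of 0.08, and the 16S rRNA MT-RNR2 had 96377.17 in siKAT7 and 117847.89 in siControl, a ratio of -0.19. The 13 mitochondrially encoded protein genes had a median of -0.05, from -0.32 for MT-ATP6 to 0.35 for MT-ND3, and 0 passed 1.5-fold. Of 16 chaperones and proteases 1 was lower, OMA1, a stress-activated protease of the inner membrane, with 42 counts in siKAT7 and 81 in siControl (-0.84, -1.42 to -0.29). CLPP, a protease of the matrix, had the highest ratio of that list, 0.42, under 1.5-fold, with 3282 counts in siKAT7 and 2635 in siControl.

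Nuclear genes of 2 other large assemblies lay higher than the mitochondrial ribosomal protein genes. The 37 complex I genes named NDUF had a median log2 ratio of 0.19, and 0 of them passed 1.5-fold. The 78 tested genes of the cytoplasmic ribosome had a median of 0.25, and 1 of them, RPS29, was 1.5-fold higher. With scaling to total counts these medians were 0.09 and 0.14, above 0, while that of the mitochondrial ribosomal protein genes was -0.02. Set beside genes of like length, the median differences were 0.06 for complex I genes and 0.11 for cytoplasmic ribosomal protein genes, against 0.01 for mitochondrial ribosomal protein genes. The last value depends on the matching: it was 0.08 with the median length of annotated transcripts and 0.04 with length and GC content matched. For the 2 other sets the differences were not computed in those ways. The backgrounds are not quite alike. Mitochondrial ribosomal protein genes were left out of all of them, whereas complex I and cytoplasmic ribosomal protein genes stayed in, also in those of their own set. With 1 library per group these differences between sets carry no test.

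**Figure D4:**
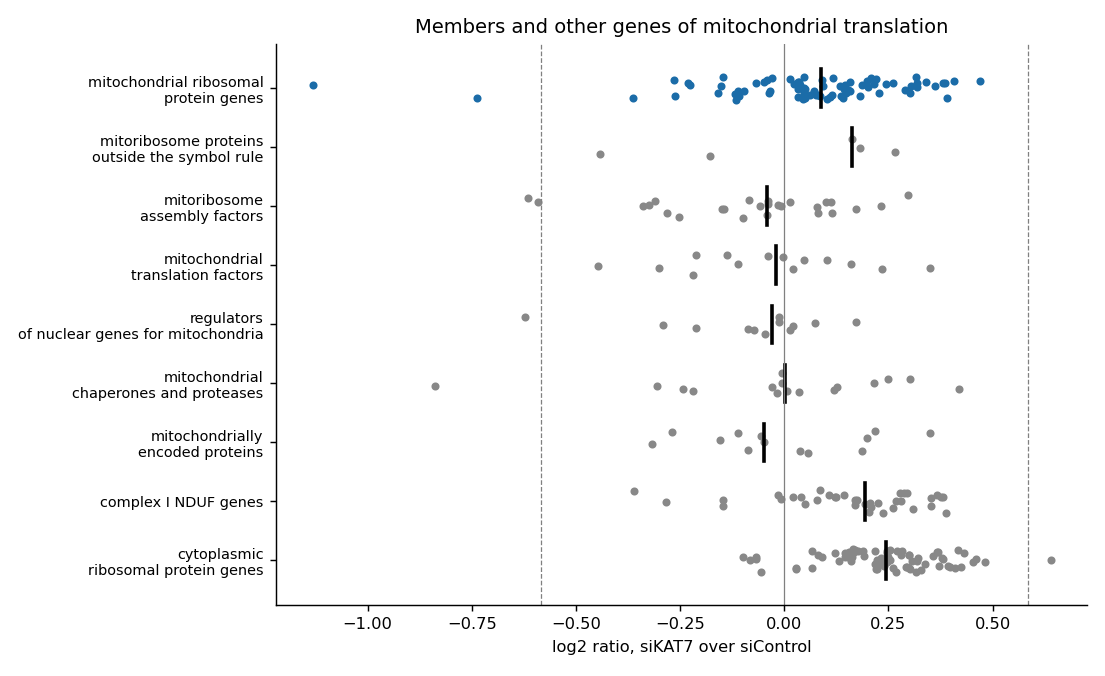
Log2 ratio of siKAT7 over siControl (TMM scaling) for the 78 mitochondrial ribosomal protein genes (blue) and the other gene groups (grey), 1 point per gene, with black bars at the group medians and dashed lines at 1.5-fold. The median is 0.09 for the mitochondrial ribosomal protein genes, which is -0.02 under scaling to total counts, 0.19 for complex I genes and 0.25 for cytoplasmic ribosomal protein genes.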

How the data were processed

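RNA-seq came from 1 siKAT7 and 1 siControl culture of HCT116. The deposited expected counts per gene were made with RSEM 1.3.3 on GRCh38.p13, per the submitters' processing notes. Aligner, annotation release, strand setting and RNA selection: not given in the sources used here. The authors' deposited table of their own comparison holds the siKAT7 over siControl ratio of each gene, the log2 of that ratio and p-values, raw and adjusted. The 331 rows without a gene name, with 1.67% of the counts in siKAT7 and 1.11% in siControl, stayed out of library sizes and comparisons. The count columns appear a second time with 0 differing cells and were used once.

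Counts were rounded and scaled with TMM factors from edgeR 4.0.16 in R 4.3.3 (0.964 for siKAT7, 1.04 for siControl). Log2 ratios used a prior count of 0.5, and exact Clopper-Pearson 95% intervals came from the split of a gene's counts. The intervals hold counting error alone, because each group has 1 library and every read is taken as an independent draw. Reads copied by PCR do not each stand for a molecule, so the intervals can be too narrow. Error in the assignment of reads to genes is not in them either. Genes counted as tested from a mean of 1 CPM on, and a gene as higher or lower at 1.5-fold with an interval that excluded 0. No test between groups was possible with 1 library each. Coordinates, types, neighbours and GC content came from GENCODE 29 on GRCh38, where 58516 identifiers were found, and promoters from RefSeq. Members named were those past 1.5-fold, the 8 highest and 8 lowest ratios at 100 or more counts, the 4 highest levels per length and 14 chosen for their roles; other members appear where they share exons or a start region, or as the ends or the exception of the remainder, chosen after their values were seen. Of list symbols 113 of 114 were found, and the missing one is MTRFR. The members and lists were chosen with earlier results of these data known. The procedure was tested on simulated data. Alternatives were scaling to total counts or with DESeq2 1.42.0, other prior counts, filters, folds and interval widths, the authors' folds, other length matching, added pseudogene counts, subunit by place, and, chosen after seeing the data, matching on GC content.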

Additional observations from a re-analysis of the deposited data

How the results depend on the processing

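Scaling decides the sign of the small median. Scaling to total counts lowers log2 ratios by 0.11 and DESeq2 size factors lower them by 0.01. With total counts the median was -0.0193 for all members, -0.0051 for MRPL genes, -0.0460 for MRPS genes and -0.0316 for genes of like length, 36 ratios were above 0, 19 intervals lay above 0 and 17 below, and the ratio of the summed counts was 0.0219. The authors' deposited table, with log2 folds that are not TMM scaled, gave -0.0193, -0.0050, -0.0459 and -0.0311 for the same 4 medians and 36 members above 0. The number of members called lower was 0 with a filter of 10 CPM (0.766% of all genes there), 1 with a threshold of 2-fold (1.28% of members, 1.09% of all genes), 4 with 1.2-fold (5.13%, 13.4% of all genes) and 1 with pseudogene and readthrough counts added, and 13 were higher at 1.2-fold (16.7%, 13.1% of all genes). The other 74 values of these summary results stayed within a set limit, which for numbers of members was a change of at most 1.5 times. For medians and for the difference from genes of like length, the limit came from the median counting interval of single members. That interval, -0.01 to 0.18 over all members, is wider than the interval of their summed counts, 0.12 to 0.14. A change of the difference from genes of like length to 0.08 was thus within the limit. Of the values of named members under alternatives 25 moved beyond their counting interval and 174 did not. The median difference from genes of like length lay between -0.01 and 0.08. No paired analysis was possible because each group has 1 library. Depth limits the members with few reads: interval widths ran from 0.10 to 1.17 on the log2 scale, with a median of 0.20.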
